A study of Mus musculus with 18 samples.

Results

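The genes described here are 10 mouse genes of actin dynamics, Cfl1, Pfn1, Tmsb4x, Actb, Actg1, Arpc1b, Arpc2, Coro1a, Capg and Lcp1, among 55487 genes counted in flow-sorted retinal cells. They were listed by name and chosen by earlier results of these libraries, among them a difference of Cfl1 counts between knockout and control microglia. Values of that contrast are therefore given as a description, and tests are given for the other contrasts. Whether results of those also entered the choice is not known, so their p-values may not be independent of it. Retinas of Bmal1f/f mice, in which Bmal1, a core gene of the circadian clock, is floxed (controls), and of Bmal1-mg/-mg mice (knockouts, named for loss of Bmal1 in microglia) were dissociated. Living, DAPI-negative cells of each genotype were sorted into CD11b-positive cells, called microglia here, and CD11b-negative cells, called retina here. The 18 libraries comprised 4 of controls and 5 of knockouts in either fraction. The labels used here give no recombinase driver, age, sex or time of day. They number the samples of a group without stating whether each came from its own mouse, and the p-values therefore rest on the spread between samples, which may be technical.

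Actin filaments grow from monomers and are taken apart again, and the balance drives cell shape, migration and engulfment. Profilin delivers monomers to growing ends, thymosin beta-4 holds monomers in reserve, and cofilin severs ageing filaments. The Arp2/3 complex starts new branches on existing filaments, coronins help to remove them, and capping and bundling proteins set filament length and packing. Microglia, the resident macrophages of the nervous system, use this machinery to move their fine processes and to take up debris, and photoreceptors use actin where their outer segment discs form.

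Total counts ran from 32277156 to 47563119 per library. The sum of 10 microglia markers was 47639 to 57671 CPM (reads of a gene relative to the total of the library, scaled by the TMM factors of all 18 libraries) in the microglia libraries and 8.15 to 18.9 CPM in the retina libraries. The sum of 15 rod markers was 6161 to 14294 CPM in microglia and 136413 to 252202 CPM in retina. Arntl, the listed name of Bmal1, had 9.89 to 26.9 CPM in control and 2.10 to 24.1 CPM in knockout microglia, and 94.4 to 136 CPM in control and 79.9 to 124 CPM in knockout retina, with overlapping groups. The count covers the whole gene, so it checks the deletion in no library. Replicate 1 of each of the 4 groups had 0 reads of the Y-linked genes Ddx3y, Eif2s3y, Kdm5d and Uty, and every other library had reads of all 4. The number of genes with a count was 18654 to 19363 in control and 17343 to 18438 in knockout microglia, and 16510 to 18715 in control and 18761 to 19713 in knockout retina. The part of these differences in the results was not tested, beyond the alternatives named beside them.

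The 10 genes together took 1.50 ± 0.121% of all counts in control microglia and 1.71 ± 0.127% in knockout microglia (mean ± SD, n = 4 and 5). In retina they took 0.132 ± 0.00712% in controls and 0.142 ± 0.00698% in knockouts. Between genes, levels are given per kilobase of annotated exon. In control microglia Tmsb4x stood first with 3637 CPM per kilobase and Actb second with 1595 CPM per kilobase, with no library of either overlapping the next gene in the order. Coro1a, Pfn1 and Cfl1 followed with 427, 413 and 407 CPM per kilobase, and each of these overlapped its neighbour. Arpc2 had 262 CPM per kilobase, Lcp1 151, Arpc1b 121, Actg1 114 and Capg 57.8 CPM per kilobase. Lcp1, Arpc1b and Actg1 overlapped from one to the next, and Capg was below all others in every library. The order in control retina was different at the top, with Actg1 at 139 and Cfl1 at 121 CPM per kilobase and the ranges of both overlapping. Tmsb4x (90.3) and Actb (87.8 CPM per kilobase) came next and overlapped each other, then Pfn1 (45.4) and Arpc2 (45.3 CPM per kilobase). Coro1a, Arpc1b, Capg and Lcp1 were each below 1 CPM per kilobase on average in control retina. With the length of the longest coding transcript in place of all exons, Pfn1 moved ahead of Coro1a in control microglia, at 1153 against 681 CPM per kilobase.

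**Figure D1:**
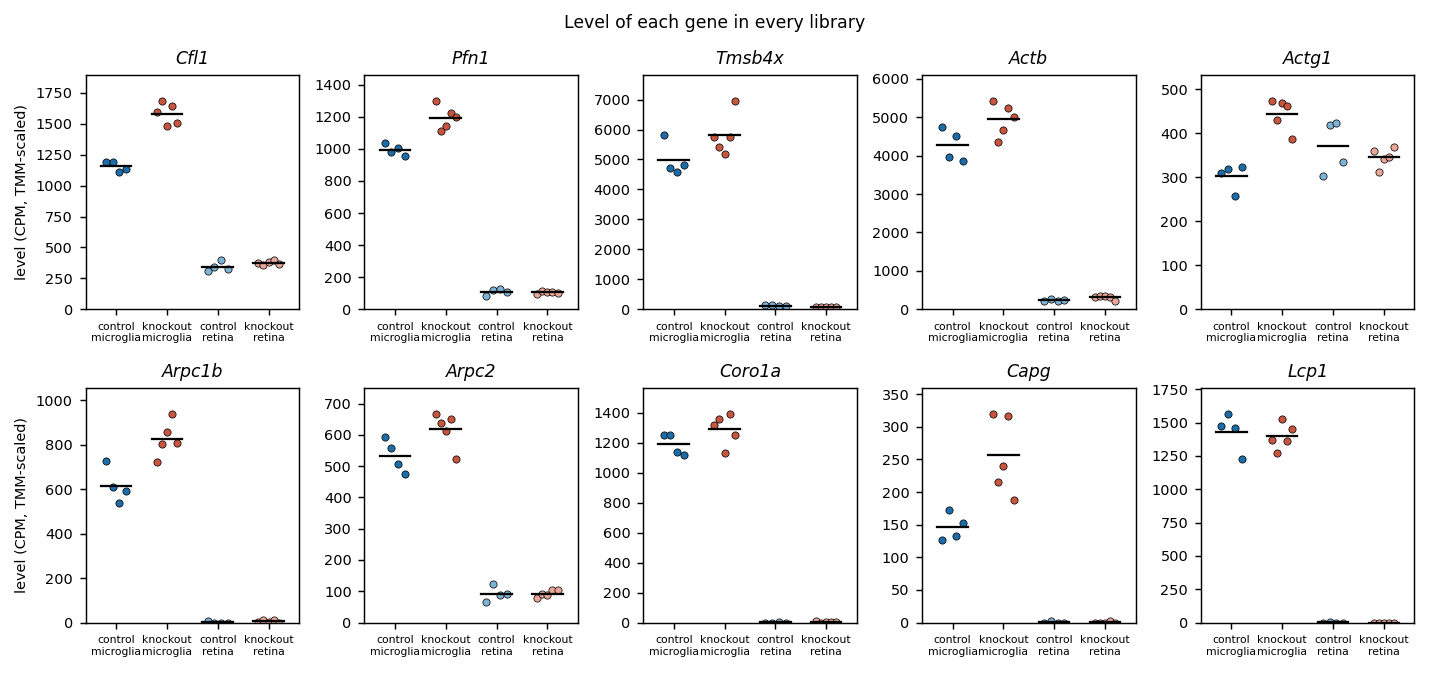
Level of each of the 10 genes in all 18 libraries, in TMM-scaled CPM on a linear axis from 0 that differs between panels. Each point is 1 library and each line a group mean. In 9 panels both microglia groups stand above both retina groups in every library, and Actg1 is the exception.

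Actb and Actg1 encode the cytoplasmic beta and gamma actins, whose proteins are nearly identical and differ in a few residues at the start of the chain. Actb lies at chromosome 5, 142903115 to 142906754 (minus strand, ENSMUSG00000029580, GRCm38), and Actg1 at chromosome 11, 120345690 to 120348542 (minus strand, ENSMUSG00000062825). Their coding sequences of 1128 bases differed at 128 positions (88.7% identical), with a longest identical run of 62 bases. The first 60 coding bases of both transcripts in GENCODE M21 are shown with the 9 differing bases in capitals, because they show how reads of 150 bases can tell the 2 genes apart.
Actb: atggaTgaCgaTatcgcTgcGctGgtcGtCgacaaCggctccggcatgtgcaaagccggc
Actg1: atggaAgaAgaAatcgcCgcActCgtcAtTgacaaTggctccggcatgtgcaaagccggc
No window of 150 bases of the Actb transcript recurred in another annotated transcript. Of the 1803 windows of the Actg1 transcript, 785 (43.5%) recurred in 3 processed pseudogenes, which together held 18.4 to 35.6 CPM in microglia and 19.4 to 30.3 CPM in retina. Reads of Actg1 and of these copies may have been divided between them or left out by the counting. The level of Actg1 is therefore uncertain by an amount not known here.

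Actb, the more abundant actin transcript of microglia, had 4755, 3973, 4499 and 3867 CPM in control microglia and 5432, 4360, 4676, 5246 and 4994 CPM in knockout microglia. The genotypes overlapped, with a log2 change of 0.21 (95% interval 0.01 to 0.40). Retina controls had 209, 271, 209 and 252 CPM of Actb, and retina knockouts 307, 334, 354, 316 and 221 CPM. Replicate 5 of the knockouts lay within the controls and the other 4 above them. The log2 change was 0.34 (SE 0.14, edgeR adjusted p = 0.321), which did not pass the threshold of 0.05.

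Actg1 had 309, 318, 257 and 324 CPM in control microglia and 475, 431, 469, 462 and 387 CPM in knockout microglia. All 5 knockout libraries were above all 4 controls. The log2 change was 0.56 (SE 0.10, 95% interval 0.34 to 0.78), a 1.47-fold higher level, and it ranged from 0.49 to 0.60 when each library was left out in turn. Retina controls had 303, 420.2, 423 and 336 CPM of Actg1, and retina knockouts 361, 313, 342, 346 and 369 CPM, so the knockouts lay within the range of the controls. The log2 change there was -0.14 (SE 0.12, edgeR adjusted p = 0.713), and it became 0.17 when each library's number of detected genes was a covariate and 0.29 when the level of rod genes was. The summed level of the 3 pseudogenes was 28.4 ± 5.50 CPM in control and 27.6 ± 6.01 CPM in knockout microglia.

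The ratio of Actb to Actg1 reads per exon length set the fractions apart. It was 15.3, 12.4, 17.4 and 11.8 in control microglia and 11.4, 10.05, 9.89, 11.3 and 12.8 in knockout microglia. In retina it was 0.684, 0.639, 0.491 and 0.744 in controls and 0.844, 1.06, 1.03, 0.906 and 0.595 in knockouts. By these counts Actb exceeded Actg1 in every microglia library, and Actg1 exceeded Actb in 7 of 9 retina libraries. The ratios share the uncertainty of the Actg1 level. The ratio was 22.2-fold higher in control microglia than in control retina (exact permutation test on log2 ratios, two-sided p = 0.0286, the smallest that 4 against 4 allows, Benjamini-Hochberg adjusted over 3 comparisons p = 0.0429). In knockouts it was 12.7-fold higher in microglia (exact permutation p = 0.00794, adjusted p = 0.0238). Knockout retina had a 1.37-fold higher ratio than control retina, which did not pass (exact permutation p = 0.0794, adjusted p = 0.0794).

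**Figure D2:**
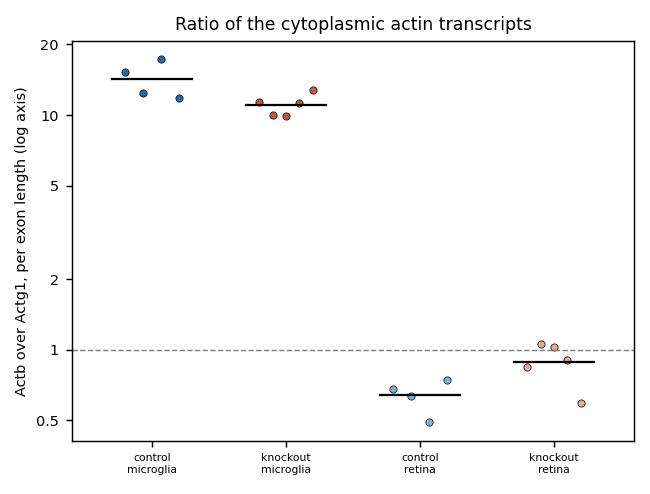
Ratio of Actb to Actg1 reads, each divided by its exon length, on a log axis, with 1 point per library and a line at each group mean. The dashed line marks a ratio of 1. Microglia libraries lie between 9.89 and 17.4 and retina libraries between 0.491 and 1.06.

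Promoter sequence was available for 9 of the 10 genes, in 11 RefSeq entries (GRCm38.p6). In the 250 bases before the start, the E-box CACGTG, a site bound by BMAL1 with its partner CLOCK, was found on either strand in 6.02% of 32851 promoters, and the CArG box, bound by the actin-responsive factor SRF, in 1.47%. Among the entries of the 9 genes Actg1 held both and the others neither. The Actg1 sequence is shown because of these letters, with the E-box (141 to 136 bases before the start) and the CArG box (90 to 81 bases before the start) in capitals, without the 47 bases nearest the RefSeq start, which GENCODE M21 places in the gene.
Actg1, chr11:120348543-120348745, minus strand: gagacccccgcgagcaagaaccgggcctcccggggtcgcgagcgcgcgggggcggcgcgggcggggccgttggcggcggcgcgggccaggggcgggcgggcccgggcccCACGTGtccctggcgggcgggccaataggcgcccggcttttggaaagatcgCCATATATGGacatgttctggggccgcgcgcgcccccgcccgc
The same region of Cfl1 is shown for comparison, as the gene the list is named for.
Cfl1, chr19:5490205-5490454, plus strand: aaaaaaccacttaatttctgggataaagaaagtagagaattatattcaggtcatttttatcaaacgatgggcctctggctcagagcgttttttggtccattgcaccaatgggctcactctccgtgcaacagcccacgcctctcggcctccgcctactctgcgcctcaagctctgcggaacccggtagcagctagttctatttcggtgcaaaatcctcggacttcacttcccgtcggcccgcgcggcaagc
The letters are a description of these windows. G and C made up 79.3% of the Actg1 sequence and 52.0% of that of Cfl1, against a median of 52.4% over all promoters.

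Cfl1, at chromosome 19, 5490455 to 5495201 (plus strand, ENSMUSG00000056201), encodes cofilin-1, which severs filaments and so frees monomers and new ends. Control microglia had 1193, 1195, 1108 and 1133 CPM of Cfl1, and knockout microglia 1593, 1688, 1486, 1641 and 1510 CPM. The highest control was well below the lowest knockout. The means were 1157 ± 43.7 and 1584 ± 85.3 CPM, and the log2 change was 0.45 (SE 0.06, 95% interval 0.32 to 0.58), a 1.37-fold higher level. Control retina had 313, 339.5, 398 and 329.6 CPM, and knockout retina 373, 354, 382, 398 and 369 CPM. These overlapped, and the log2 change was 0.08 (SE 0.09, 95% interval -0.12 to 0.28, edgeR adjusted p = 0.795). Of the exon bases of Cfl1, 468 (16.5%) overlap those of Snx32 on the opposite strand. The sources do not say whether counting used strand, but Snx32 had 0.719 to 13.3 CPM in microglia, low beside Cfl1.

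Pfn1, at chromosome 11, 70651850 to 70654644 (minus strand, ENSMUSG00000018293), encodes profilin-1, the main carrier of monomers to growing ends. It had 1037, 979, 1003 and 954 CPM in control microglia and 1301, 1110, 1142, 1224 and 1199 CPM in knockout microglia. Again every knockout was above every control, by a smaller margin (log2 change 0.27, SE 0.06, 1.20-fold). Its level in retina was 83.5 to 125 CPM among controls and 97.0 to 113 CPM among knockouts, with the knockouts inside the range of the controls (log2 change -0.10, SE 0.13, edgeR adjusted p = 0.836). That value was 0.04 when the level of rod genes was a covariate and 0.08 with the number of detected genes.

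Tmsb4x, at chromosome X, 167207093 to 167209315 (minus strand, ENSMUSG00000049775), encodes thymosin beta-4, the small peptide that keeps monomers in reserve. It was the one gene of the 10 that differed between genotypes in retina and passed the test there. Its upstream sequence, again without the part that GENCODE M21 places in the gene (97 bases), holds neither of the letters searched.
Tmsb4x, chrX:167209316-167209468, minus strand: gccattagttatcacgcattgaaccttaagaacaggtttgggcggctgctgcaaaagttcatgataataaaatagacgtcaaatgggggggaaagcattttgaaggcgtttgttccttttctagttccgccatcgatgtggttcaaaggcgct
Control retina had 134, 130.4, 110.5 and 121 CPM of Tmsb4x, and knockout retina 85.5, 85.0, 69.7, 88.3 and 90.7 CPM. All 5 knockouts were below all 4 controls. Tmsb4x fell to a fold of 0.659 (95% interval 0.549 to 0.790, log2 change -0.60, SE 0.12, edgeR adjusted p = 0.0409), lower in 5 of 5 libraries. In microglia the values pointed the other way and overlapped, with 5808, 4724, 4586 and 4827 CPM among controls and 5740, 5428, 5196, 5739 and 6966 CPM among knockouts (log2 change 0.22, 95% interval -0.00 to 0.45).

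The call of Tmsb4x in retina rested on small margins. Of the 9 fits that left out 1 library it passed in 1, without knockout replicate 5 (adjusted p = 0.0417), and in the other 8 the adjusted p was 0.0569 to 0.0957, with log2 changes from -0.65 to -0.54 in all 9. Beside it, the sum of 15 rod markers was 171651 to 252202 CPM in control and 136413 to 168642 CPM in knockout retina, and that of 8 cone markers 795 to 1819 CPM and 2685 to 6407 CPM. The sum of 10 bipolar cell markers was 459 to 998 CPM in control and 1647 to 3057 CPM in knockout retina, and that of 8 Mueller glia and astrocyte markers 1141 to 3071 CPM and 2298 to 4524 CPM. Of the rod markers 15 were negative and 6 called, of the cone markers 8 positive and 4 called. Of the bipolar markers 9 were positive and 6 called, and of 7 Mueller glia and astrocyte markers tested 7 positive and 0 called. Of all genes 1.66% were called. No rod, cone, bipolar or Mueller glia marker was at 0 in a group. The sum of 12 markers of monocytes, border macrophages and granulocytes was 0.224 to 5.10 CPM and 16.3 to 19.0 CPM, with 7 of the 12 at 0 in each group (S100a8 in controls, Ccr2 in knockouts, and Pf4, F13a1, Ms4a7, Cd163, S100a9 and Ly6g in both). When the level of rod genes was a covariate, the log2 change was -0.41 (adjusted p = 1.000), and -0.62 with the number of detected genes (adjusted p = 0.447). The sum of 10 microglia markers in retina was 14.0 to 18.9 CPM in controls, with Aif1 and Fcrls at 0, and 8.15 to 18.1 CPM in knockouts, with P2ry12, Itgam and Fcrls at 0. In bulk samples, a change in the share of a cell type and a change of RNA per cell cannot be told apart.

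Arpc1b and Arpc2 encode subunits of the Arp2/3 complex that nucleates branches. Arpc1b lies at chromosome 5, 145114215 to 145130705 (plus strand, ENSMUSG00000029622), and Arpc2 at chromosome 1, 74236084 to 74268209 (plus strand, ENSMUSG00000006304). Arpc1b had 728, 610, 536 and 592 CPM in control and 724, 806, 856, 939 and 807 CPM in knockout microglia. Knockout replicate 1 fell just below control replicate 1, and the other 4 knockouts were above all controls (log2 change 0.42, SE 0.11, 1.34-fold). Arpc2 had 476 to 592 CPM in control and 522 to 667 CPM in knockout microglia, which overlapped (log2 change 0.21, SE 0.10). Its retina levels were 67.1 to 123 CPM among controls and 77.8 to 104 CPM among knockouts (log2 change -0.03, SE 0.17, edgeR adjusted p = 0.972), and the sign of so small a value turned under 6 alternatives.

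Arpc1b was close to absent from retina and its reads were scattered. Control replicate 1 had 318 reads and the other 3 controls 0, and knockouts had 98, 523, 77, 497 and 1 reads. The log2 change of 1.79 had an SE of 2.18 (edgeR adjusted p = 0.823). Of the exon bases of Arpc1b, 931 (18.2%) overlap Pdap1 on the opposite strand, and the 3 control libraries with 0 reads of Arpc1b had 1660, 1353 and 1628 reads of Pdap1. Of the windows of 150 bases of the Arpc1b transcript, 33 of 2956 (1.12%) recurred in 1 pseudogene. Arpc1a, the other form of the same subunit, was not close to absent, with 73.1 ± 13.2 CPM in control retina and 69.3 ± 10.4 CPM in control microglia.

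Coro1a, at chromosome 7, 126699773 to 126707787 (minus strand, ENSMUSG00000030707), encodes coronin-1A, a coronin of blood-derived cells. It had 1251, 1250, 1140 and 1117 CPM in control and 1316, 1357, 1133, 1392 and 1249 CPM in knockout microglia. The groups overlapped (log2 change 0.12, 95% interval -0.05 to 0.29). In retina it had 2, 0, 210 and 1 reads in controls and 292, 0, 156, 165 and 13 reads in knockouts, again scattered (log2 change 1.15, SE 2.05, edgeR adjusted p = 0.896).

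Capg, at chromosome 6, 72544391 to 72562983 (plus strand, ENSMUSG00000056737), encodes the macrophage capping protein, which blocks filament ends. Capg had 126, 173, 132 and 153 CPM in control microglia and 320, 216, 240, 317 and 188 CPM in knockout microglia. All knockouts were above all controls, and the log2 change of 0.81 (SE 0.18, 95% interval 0.40 to 1.22, 1.75-fold) was the highest of the 10. It was 0.65 without the replicate 1 libraries. Lcp1, at chromosome 14, 75131101 to 75230842 (plus strand, ENSMUSG00000021998), encodes L-plastin, a bundling protein of leukocytes, and gave the lowest value. It had 1477, 1565, 1457 and 1226 CPM in control and 1371, 1272, 1525, 1360 and 1454 CPM in knockout microglia (log2 change -0.04, 95% interval -0.22 to 0.15). In retina neither gene passed the filter on low counts. Capg had 86 reads in control replicate 2, 107 in knockout replicate 4 and 0 in the other 7 libraries, and Lcp1 had 242 reads in control replicate 2 and at most 2 in any other.

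In the microglia contrast 9 of the 10 genes had positive log2 changes, and their median was 0.24 against -0.01 over all 14835 genes tested. The list holds Cfl1 because of this contrast, so these counts are a description. Cfl1 was past the threshold there, as were 0.115% of all genes (0.101% as higher and 0.0135% as lower). Of the 10, 4 (Cfl1, Pfn1, Actg1 and Capg) had knockouts above all controls, as had 1.88% of all genes. None of the 10 had knockouts below all controls (1.41% of all genes). Cfl1 remained past the threshold in 2 of the 9 fits that left out 1 library, those without knockout replicates 3 and 5. It was not past it without any of the control replicates or knockout replicates 1, 2 and 4, with its log2 change between 0.43 and 0.47 in all 9. DESeq2 put 5 of the 10 past the threshold, and 1.62% of all genes with an adjusted p. As this contrast entered the choice of the 10, no call or share of calls here tests them as a set. Beside these values, the sum of 12 markers of monocytes, border macrophages and granulocytes was 79.2 to 522 CPM in control and 193 to 652 CPM in knockout microglia, and none of the 12 was at 0. Of the 11 tested, 8 had positive log2 changes and 0 passed by edgeR, DESeq2 or voom (0 at an unadjusted p under 0.05), and their part in the result was not tested.

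**Figure D3:**
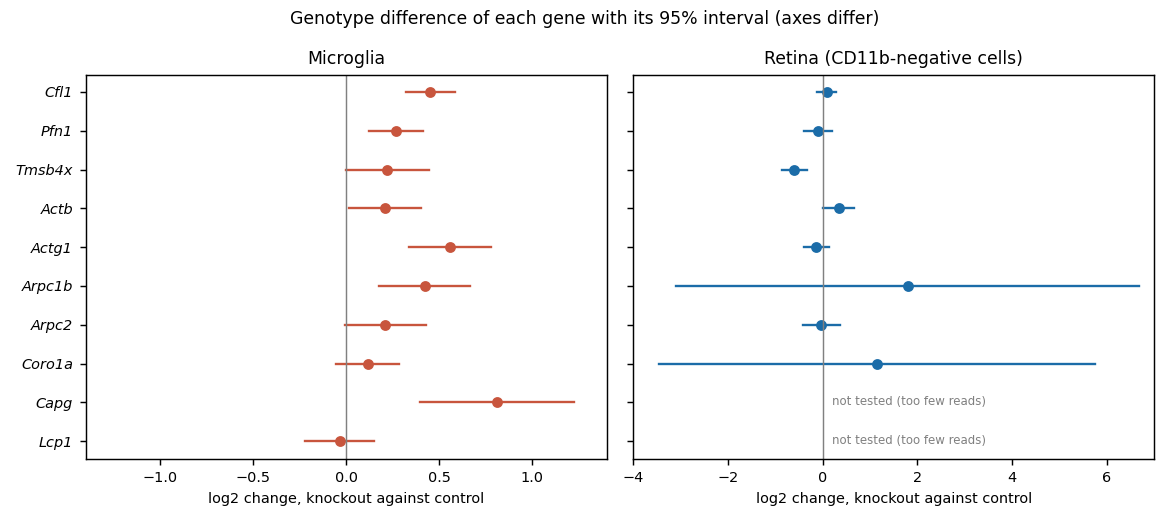
Log2 change between knockout and control of each of the 10 genes, with its 95% interval, in microglia (left) and retina (right), on axes that differ. In microglia 9 points lie above 0, and in retina Tmsb4x lies below 0 while Arpc1b and Coro1a have intervals of several units.

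In the retina contrast 8 of the 10 genes passed the filter on low counts, 4 with positive and 4 with negative log2 changes. Among the 8, Tmsb4x passed the test, against 1.66% of all 15332 genes tested in either direction and 0.326% among lower genes. Its groups did not overlap, as was so for 2.69% of all genes with lower knockouts. The 95% intervals were 0.922 to 1.21-fold for Cfl1, 0.764 to 1.14-fold for Pfn1, 0.759 to 1.09-fold for Actg1 and 0.746 to 1.28-fold for Arpc2, in the fit without covariates. With the level of rod genes as a covariate the log2 change was 0.29 for Actg1 and 0.46 for Arpc2. Both lay above the upper limits of these intervals, which on the log2 scale were 0.12 and 0.36.

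The difference between the genotype effects of the 2 fractions holds the microglia contrast and is given as sizes. For Tmsb4x the log2 effect was 0.78 higher in microglia than in retina (95% interval 0.47 to 1.10), while the median over all 18128 genes was -0.13. It was past the threshold, as were 0.469% of all genes (0.0772% as higher in microglia and 0.392% as lower), and it was the one gene of the 10 that was. As the microglia contrast entered the choice of the 10, that call is a description and no test. Tmsb4x was not past the threshold without control microglia replicates 2, 3 or 4 or control retina replicate 2, with values of 0.75, 0.74, 0.76 and 0.76. Without the replicate 1 libraries it was 0.83 and not past the threshold. For Actg1 the difference was 0.66 (0.31 to 1.00), for Cfl1 0.33 (0.09 to 0.58), for Pfn1 0.33 (0.01 to 0.65), for Arpc2 0.20 (-0.24 to 0.65) and for Actb -0.17 (-0.56 to 0.21).

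Between the fractions, Arpc1b, Coro1a, Capg and Lcp1 reached the test through microglia, where they are high, so they are given by their reads and not counted here. Of the other 6 genes, 5 were higher in control microglia than in control retina, passed the test and did not overlap between the groups. Of all 15188 genes tested, 40.2% passed in either direction and 22.8% as higher, and 28.8% did not overlap as higher and 20.7% as lower. In knockouts, which share no library with the controls, these 6 were higher in microglia, passed and did not overlap. Of all 15211 genes tested there, 44.9% passed in either direction, 23.7% as higher and 21.2% as lower, and 22.9% did not overlap as higher and 22.4% as lower. Among the 6 genes with ample reads in both fractions, Tmsb4x differed most. It was 39.04-fold higher in control microglia (95% interval 31.3 to 48.8, edgeR adjusted p = 5.26e-07) and 65.7-fold higher in knockout microglia (53.5 to 80.7, adjusted p = 1.37e-09). Actb was 17.6-fold higher in controls (adjusted p = 1.35e-06) and 15.3-fold higher in knockouts (adjusted p = 2.13e-08), and Pfn1 8.82-fold and 10.8-fold (adjusted p = 4.40e-06 and 4.93e-09). Arpc2 was 5.61-fold and 6.32-fold higher, and Cfl1 3.25-fold (95% interval 2.69 to 3.92, adjusted p = 1.86e-05) and 4.00-fold (3.53 to 4.53, adjusted p = 3.54e-08).

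Actg1 stood apart from the other 9. In controls its log2 difference of microglia minus retina was -0.34 (95% interval -0.70 to 0.02, edgeR adjusted p = 0.121), and in knockouts 0.28 (0.07 to 0.49, adjusted p = 0.0315). The value in controls was past the threshold with upper-quartile scaling (-0.61), under which the median of all genes moved from 0.02 to -0.25. The value in knockouts was past the threshold under 13 of 18 alternatives. It was not past it with upper-quartile scaling (0.09, with a median over all genes of -0.29 against -0.10), with DESeq2 size factors (0.24, adjusted p = 0.0753), with no filter (0.31, adjusted p = 0.0722) or without knockout microglia replicate 1 (0.28, adjusted p = 0.0533). Nor was it past the threshold with replicate number as a block (0.28). The value of Actg1 was negative in controls and positive in knockouts under every alternative run.

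For the 4 genes close to absent from retina, single libraries set the size of the difference. Arpc1b had 97162 reads in control microglia and 318 in control retina, all in replicate 1, and without that library the level was at least 23705-fold higher in microglia, against a floor of 3 counts over the group. Capg had 22872 against 86 reads, all in replicate 2, and was at least 6034-fold higher without it. Coro1a had 187147 against 213 reads, and without replicate 3 the 3 reads left gave a ratio of 48960 (95% counting interval 16753 to 237414). Lcp1 had 225429 against 245 reads, and without replicate 2 the 3 reads left gave a ratio of 59473 (20350 to 288390). The ratios in knockouts were lower for Arpc1b, at 124 (169.9 without retina replicate 2), and Coro1a, at 369.5 (561 without retina replicate 1). Capg had a ratio of 429 in knockouts and was at least 12332-fold higher without retina replicate 4, and Lcp1 had 254281 against 2 reads, a ratio of 126035 (34890 to 1040715). The intervals cover counting error only, and amplified cDNA without molecular identifiers does not give independent molecules.

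**Figure D4:**
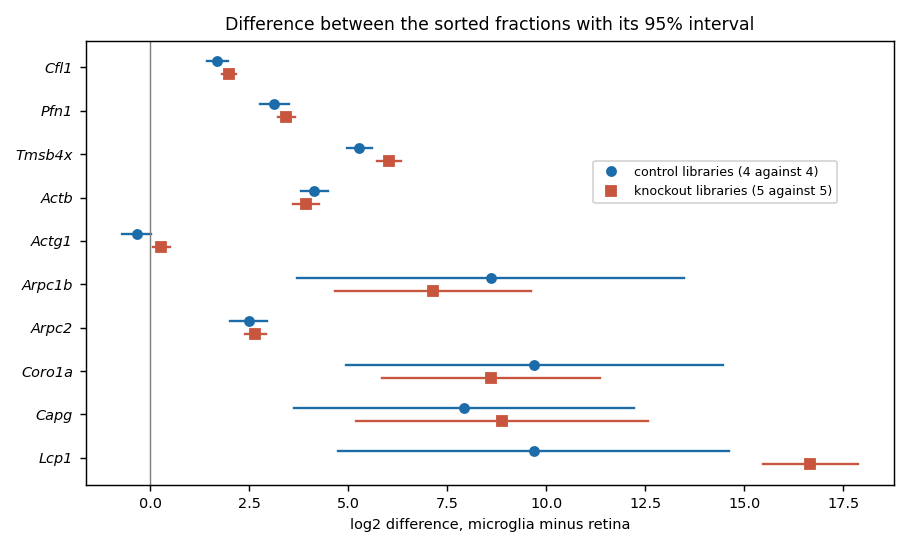
Fitted log2 difference of microglia minus retina for each of the 10 genes with its 95% interval, in control libraries (circles) and knockout libraries (squares). Actg1 lies near 0, the other genes with ample reads lie between 1.70 and 6.04, and Arpc1b, Coro1a, Capg and Lcp1 rest on few scattered retina reads, so that their fitted values are no bounds.

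The wider actin pathway was described with 12 lists holding 146 other genes. In microglia 128 of these were tested and 0 passed the edgeR threshold, against 0.115% of all genes. Of the 128, 20 had an unadjusted p under 0.05, against 5.76% of all genes. The lists were chosen with earlier results of these data known, so these counts are a description. There were 70 positive log2 changes and a median of 0.03. DESeq2 put 10 of the 128 past the threshold as higher and 1 as lower (1.62% of all genes in either direction), and limma's voom 0 (0.175% of all genes). Among the other 8 Arp2/3 subunits, 6 had positive values and the median was 0.23, with the smallest p for Arpc4 (388 ± 18.6 to 495 ± 38.2 CPM, log2 change 0.35, SE 0.08, adjusted p = 0.220). Among the other 11 genes of the cofilin list 7 had positive values, with Wdr1, which helps cofilin to take filaments apart, at 0.23 (SE 0.06, adjusted p = 0.367). Other small p-values belonged to Tpm4, a tropomyosin (0.85, SE 0.20, adjusted p = 0.285), Tagln2 (0.62, SE 0.15, adjusted p = 0.288), Gsn, which encodes the severing protein gelsolin (1.18, SE 0.32, adjusted p = 0.417), and Enah, at 2.18 against 0.0652 CPM (-4.99, SE 1.14, adjusted p = 0.242). Of 23 nucleation promoting factors 8 had positive values and the median was -0.12. Srf itself had a value of 1.17 (SE 0.47, adjusted p = 0.777). The skeletal actin gene Acta1, at 0.728 and 0.685 CPM, had -0.08.

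In retina 121 of the 146 genes were tested, with 66 positive values and a median of 0.06. Of these 2 passed, both higher, against 1.66% of all genes. Fscn1, which encodes the bundling protein fascin, had 44.5, 36.3, 49.7 and 41.4 CPM among controls and 96.8, 97.3, 137, 104 and 73.4 CPM among knockouts. All knockouts were above all controls, and Fscn1 rose by 1.20 on the log2 scale (SE 0.18, edgeR adjusted p = 0.0178), and it stayed past the threshold whichever of the 9 libraries was left out. Twf2, which encodes the monomer-binding protein twinfilin-2, had 0 reads in all 4 controls and 221, 195, 211, 358 and 88 reads in the 5 knockouts. It was at least 308-fold higher in knockout retina, against a floor of 3 counts over the control group, while in microglia it had 306 ± 17.5 and 319 ± 45.1 CPM. Twf2 reached the retina test through the knockouts, where it is high. Its passing (edgeR adjusted p = 0.0135) is therefore a description and no support. When the level of rod genes was a covariate, that of Fscn1 was 0.52 (adjusted p = 1.000) and neither gene passed. The bipolar, cone and monocyte marker sums given beside Tmsb4x were likewise higher in every knockout retina library than in every control. So was the sum of 10 amacrine, horizontal and ganglion cell markers (69.5 to 153 against 209 to 324 CPM). Lhx1 and Onecut1 were at 0 in controls, and of the 8 tested 6 were positive and 1 was called. The rod sum was lower in every knockout. The part of these sums in the calls of Fscn1 and Twf2 was not tested. Just outside the threshold were Pdxp, a phosphatase of cofilin (1.38, SE 0.30, adjusted p = 0.0575), and Nckap1, a part of the WAVE complex (1.35, SE 0.30, adjusted p = 0.0629). Arpc4 had -0.42 (adjusted p = 0.178), Diaph3 -1.37 (adjusted p = 0.117) and Pak3 0.94 (adjusted p = 0.123). In the difference between the effects, 136 of these genes were tested, and Twf2, Fscn1 and Cap2 passed, all lower in microglia. Of all 18128 genes 0.392% passed as lower and 0.0772% as higher, so being lower was the usual direction of a call. Of the 18 fits that left out 1 library Twf2 passed in 18, which, with its 0 reads in control retina, is no sign of stability. Fscn1 passed in 15, not without control microglia replicates 2 or 3 or control retina replicate 2. Cap2 passed in 4, those without control microglia replicate 1, knockout microglia replicates 1 or 2 or knockout retina replicate 5, and had an adjusted p of up to 0.0769 in the other 14. Cap2, a cyclase-associated protein, did not pass the filter on low counts in the microglia contrast and was not tested there. Summed over each group it had 385 reads in control and 0 in knockout microglia, at least 154-fold higher in controls. That pooled ratio does not show the spread between libraries.

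**Figure D5:**
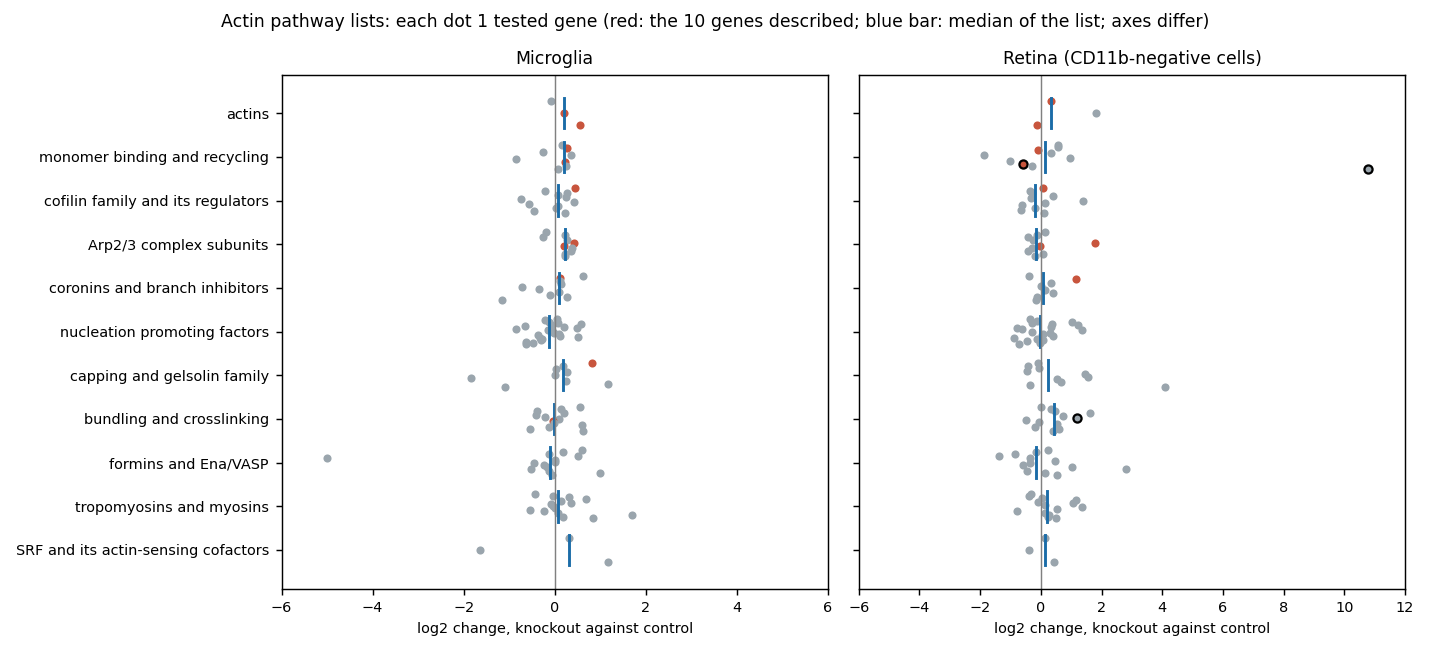
Log2 change between knockout and control of each tested gene of 11 of the 12 actin pathway lists, in microglia (left) and retina (right), on axes that differ. Red points are the 10 genes described, grey points the other genes, blue bars the median of a list, and black rims the genes past the threshold in retina (Tmsb4x, Fscn1 and Twf2). Most points lie within 2 units of 0.

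Between the control fractions, 130 genes of the lists other than the 10 were tested. Of these, 66 passed as higher in microglia and 14 as lower, against 22.8% and 17.4% of all genes. The 66 include genes such as Twf2, Myo1f and Dock2, which reached the test through microglia, where they are high. The count is therefore no test of the lists. Of the other 8 Arp2/3 subunits 7 passed, 1 of them as lower. The lower one was Actr3b, at 4.19 CPM in microglia and 56.8 CPM in retina. Other genes lower in microglia were Fscn2, the fascin of photoreceptors (25.7 against 640 CPM), and Limk2, a kinase of cofilin (20.6 against 143 CPM). Myo1f, a myosin of leukocytes, had 765 CPM in control microglia and 0 reads in control retina, and Dock2, an activator of Rac, 587 CPM and 0 reads.

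The genes whose log2 CPM followed that of Cfl1 most closely were sought among 8968 genes with a mean of at least 10 CPM. Over all 18 libraries, which fall into the 2 fractions, these were Ftl1, Pilra, Cybb, Slc15a3 and Alox5. Within the 9 microglia libraries they were Akr1a1 (Pearson r = 0.983), Ak1 (0.972), C1qc (0.970), Ppp1r14b (0.970) and Ftl1 (0.969). Of the other 9 genes described here, Actg1 came closest within microglia (0.921, rank 25), followed by Pfn1 (0.866, rank 87), and Lcp1 was farthest (-0.214). These are descriptions over libraries that share genotype groups and depth, with no test.

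The authors' deposited tables rest on the same libraries as the fits here, so they are no separate support. In that for microglia, 76 of 12841 genes were past an adjusted p of 0.05, among them Cfl1 (log2 change 0.43), Actg1 (0.54) and Capg (0.79). This is the contrast that entered the choice of the 10, so these calls are a description. In the authors' deposited table for retina, 744 of 13330 genes were, and of the 8 genes of this list that it holds Tmsb4x was past it (log2 change -0.61, adjusted p = 0.0260). Actg1 and Capg were not past the threshold in the fit used here for microglia.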

How the data were processed

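Sorted cells of mouse retina were profiled by RNA sequencing. The labels' protocols name an RNeasy Plus Micro kit for extraction, a SMARTer Ultra Low kit for cDNA, and paired reads of 150 bases on a NovaSeq X Plus. The authors deposited whole-number counts per gene, and the submitters' processing notes name DRAGEN, STAR 2.7.9a, Subread, featureCounts and GRCm38. Whether counting used strand is not given in the sources used here. Their 2 result tables give, per the file headers, a log2 fold change, the mean CPM on a log2 scale, a likelihood ratio score, p-values and adjusted p-values.

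The count table has 55774 lines, of which 287 repeat an identifier with the same counts. That left 55487 genes, 55227 of them in GENCODE M21, and 0 lines lacked a name. Library totals of 32277156 to 47563119 make 3 counts worth 0.0631 to 0.0929 CPM. Genotype and fraction contrasts used the quasi-likelihood test of edgeR 4.0.16 (R 4.3.3) on the libraries of the groups compared, after filterByExpr by group and TMM scaling, with Benjamini-Hochberg adjustment over all genes tested at 0.05. The difference of effects used all 18 libraries. A standard error is the size of the log2 change over the square root of its F, and intervals are 95%. The fit was tested on simulated counts. Alternatives were other scalings and filters, DESeq2 1.42.0, voom of limma 3.58.1, the replicate block, 2 covariates, 1 fit of all 18 libraries and leave-outs. Leaving out the replicate 1 libraries together and the coding transcript length were chosen after seeing the data.

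The 10 genes and the gene lists were chosen with earlier results of these data known. Named from the lists are genes past the threshold, those with the smallest p of a list in each genotype contrast, and the extremes between fractions among genes with 10 CPM or more in either group, besides the 5 genes closest to Cfl1. Arpc1a, Snx32, Pdap1 and the Y-linked genes were named after their values were seen. The results of 1 gene list are not reported here.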

Additional observations from a re-analysis of the deposited data

Results flagged for a closer look

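In 7 of 40 groups of libraries, 1 library stood far from the rest of its group by Dixon's criterion, which chance meets in about 1 in 20 groups. Tmsb4x had 69.7 CPM in knockout retina replicate 3, below 85.0 to 90.7 CPM in the other 4. The other 6 were genes close to absent from retina, where 1 library held nearly all reads of a group. These were Arpc1b (6.09 CPM), Coro1a (5.47 CPM), Capg (2.41 CPM) and Lcp1 (6.77 CPM) in control retina, and Capg (2.55 CPM) and Lcp1 (0.0512 CPM) in knockout retina. Without knockout retina replicate 3, the log2 change of Tmsb4x in retina was -0.54 (edgeR adjusted p = 0.0867).

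The genotype effect on Tmsb4x differed between the fractions, by 0.78 on the log2 scale (microglia minus retina), and the fit over all 18 libraries put this past the threshold. The choice of the 10 genes had the microglia contrast in view, so the difference is a description here.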

How the results depend on the processing

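Of the 10 genes 1 passed in microglia (17 of all genes), 1 in retina (255) and 1 in the difference of effects (85). With no filter these counts were 0 (8), 0 (120) and 0. DESeq2 gave 5 (239) and 3 (1090), and 1188 genes in retina. Voom called 26 genes in microglia and 0 of the 10 (145) in the difference. One fit of all 18 libraries called 32 genes in microglia. The number of detected genes as a covariate gave 0 (5) in microglia and 0 (2) in retina, and the rod gene level 0 (7) and 0 (0), where fewer degrees of freedom remained. Without the 2 microglia libraries that hold Xist reads in number, 0 (4) passed, and without the replicate 1 libraries 0 of the 10 passed in the difference. With the replicate block the counts were 0 (2) in microglia, 0 (0) in retina and 30 genes in the difference. Same-numbered libraries correlated at -0.11 to 0.09 after removing group means, and not every library correlated best with its own number. Replicate 1 lacks reads of Y-linked genes in all 4 groups, and what else a number marks is not given, so no pairing is assumed. Actg1 between knockout fractions had 0.28 (edgeR adjusted p = 0.0892) with the block. When each library was left out in turn, 0 to 1 of the 10 passed in each of these, with 4 to 21, 96 to 342 and 51 to 143 of all genes. Between fractions 9 of the 10 passed in each such fit of controls (5328 to 5854 of all genes). In such fits of knockouts 9 to 10 passed (6317 to 7507). These counts include Arpc1b, Coro1a, Capg and Lcp1, which enter the test through microglia, so for those genes passing is no sign of stability.

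Signs turned for these genes. In retina, with the number of detected genes and the rod gene level as covariates, Pfn1 had 0.083 and 0.043, Actg1 0.17 and 0.29, Arpc1b -3.39 and -7.80, and Arpc2 0.24 and 0.46. Arpc2 had 0.020 with voom, 0.0070 in the fit of all 18 libraries and -0.14 to 0.15 with a library left out. With the rod gene level Actc1 had -1.19 and Pak3 -0.018. In microglia Acta1 had 0.12 with the replicate block and -0.67 to 0.75 with a library left out. Srf between control fractions had 0.11 with voom, 0.026 with the block and -0.64 to 0.49 with a library left out. The cause was not tested. Under the alternatives 140 counts stayed within 1.5 times and 60 did not. Of single-gene values 1812 kept direction and side of the threshold, 23 turned sign, 44 lost and 25 gained the threshold, and 56 without a test moved by more than their spread. Genes with few retina reads have wide intervals at this depth.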
